A study of Mus musculus with 12 samples.

Results

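The genes described here are 33 genes of cholesterol synthesis, sterol sensing, sterol transport and the lipoprotein component Apoe, measured in germ cells of female mouse embryos from pregnancies with and without vitamin C in the diet. They were taken by symbol from a table of 12516 genes, and all 33 were listed, one of them (Msmo1) under its older symbol Sc4mol. All 33 passed the filter on low values, as did 12432 genes in all. Every embryo was Gulo-/- on a C57BL/6 background at embryonic day 13.5, and the colony took its vitamin C from the diet, because Gulo, whose enzyme completes the making of this vitamin, was disrupted. In 6 embryos the diet supplied vitamin C at a physiological level (supplied), and in 6 it was withdrawn for the first 2 weeks of gestation (withdrawn). Germ cells were sorted as Oct4 positive, and Pou5f1, which encodes Oct4, had a supplied mean of 12.55 and was 0.45 higher (log2) in withdrawn embryos. Of 14 germ cell markers, 13 lay above the median gene.

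Animal cells build cholesterol from acetyl-CoA through mevalonate, isoprenoid units, squalene and lanosterol. When sterol in the endoplasmic reticulum falls, SCAP carries the SREBP transcription factors to the Golgi, where they are cut free and activate the genes of synthesis and uptake, and the INSIG proteins hold that complex back when sterol is plentiful. Surplus cholesterol is stored as ester or leaves the cell through ABC transporters to apolipoproteins such as apolipoprotein E, and the genes Abca1, Abcg1 and Apoe are known targets of the sterol-sensing liver X receptors. Isoprenoid and cholesterol synthesis have been linked to germ cell migration in several animals, and at the age studied here female germ cells are entering meiosis.

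The promoters of the synthesis genes are shown first because these genes share known regulators. Windows from 250 bases before to 50 bases after each annotated start came from RefSeq on build GRCm38.p6, matched by symbol, and 26 of the 33 genes had at least 1 window. A pair of short motifs was sought on both strands: TCACNCCAC, a form of the sterol response element that SREBP binds, and CCAAT, bound by NF-Y, a known partner of SREBP. The motifs share no matched bases in the stretches printed. The 3 called synthesis genes with a window are shown with the 100 bases upstream of the start, and Hmgcs1 with 150 because it was the only one of the 26 with a TCACNCCAC match. Each stretch is written 5′ to 3′ on the strand of the gene, with motif matches on either strand in capitals, and CCAAT on the other strand reads ATTGG.
Mvd, chr8:122443423-122443522, minus strand: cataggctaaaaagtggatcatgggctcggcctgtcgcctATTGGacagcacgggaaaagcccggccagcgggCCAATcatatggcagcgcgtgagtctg
Lss, chr10:76531505-76531604, plus strand: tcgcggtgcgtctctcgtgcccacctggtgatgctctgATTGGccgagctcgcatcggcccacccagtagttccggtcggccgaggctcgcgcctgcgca
Msmo1 (Sc4mol), chr8:64733579-64733678, minus strand: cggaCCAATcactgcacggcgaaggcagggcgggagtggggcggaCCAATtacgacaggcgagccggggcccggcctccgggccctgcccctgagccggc
Hmgcs1, chr13:119690201-119690350, plus strand: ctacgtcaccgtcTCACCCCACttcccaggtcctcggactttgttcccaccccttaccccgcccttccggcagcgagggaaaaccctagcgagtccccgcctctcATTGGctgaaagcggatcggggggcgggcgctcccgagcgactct

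A CCAAT match stood in a window of 22 of the 26 genes (84.6%), against 3873 of 8849 tested genes with a window (43.8%) and 12289 of all 32851 windows (37.4%). Among the synthesis enzymes it was 16 of 17 genes, and the exception was Acat2. The windows of Apoe, Abca1 and Scap held neither motif. TCACNCCAC was found in 1 of 26 genes (3.85%), against 122 of the 8849 tested genes (1.38%) and 408 of all 32851 windows (1.24%). Of the synthesis genes called as changed (below) and with a window, Mvd held 2 CCAAT matches, Lss 1 and Sc4mol 3. Among synthesis genes not called, the matches ran from 0 in Acat2 to 5 in Mvk, with 4 each in Hmgcs1 and Nsdhl. These matches are a description of letters in the windows only.

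Withdrawn embryos had more Apoe and less Abca1 RNA, and slightly more RNA of 4 enzymes of cholesterol synthesis, Mvd, Sc4mol, Lss and Fdft1. Apoe was 1.74-fold higher and Abca1 1.48-fold lower, and the 4 enzymes were 1.15-fold to 1.21-fold higher. The other 27 genes were not called. In this comparison 14.0% of all tested genes were called, meaning an adjusted p under 0.05 (limma, Benjamini-Hochberg over 12432 genes), 6.22% higher and 7.75% lower. The total of 6 of 33 (18.2%) is close to the background. By direction, 5 of the 33 were higher and 1 lower, whereas more of all tested genes were called lower than higher. That split was not tested. These calls treat the embryos as independent. The calls of the 4 enzymes were often lost in alternative fits, and that of Abca1 in 4 of 28 (below). The median log2 fold change of the 33 genes was 0.02, with 20 positive and 13 negative, and that of all tested genes was -0.01. All values are deposited normalized log2 values, and log2 fold changes subtract the supplied from the withdrawn mean. Levels are compared between genes only where markers are set against the median gene, and any adjustment for gene length is unknown. The values come from bulk RNA of sorted cells, in which fewer cells of a type and less RNA per cell cannot be told apart.

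**Figure D1:**
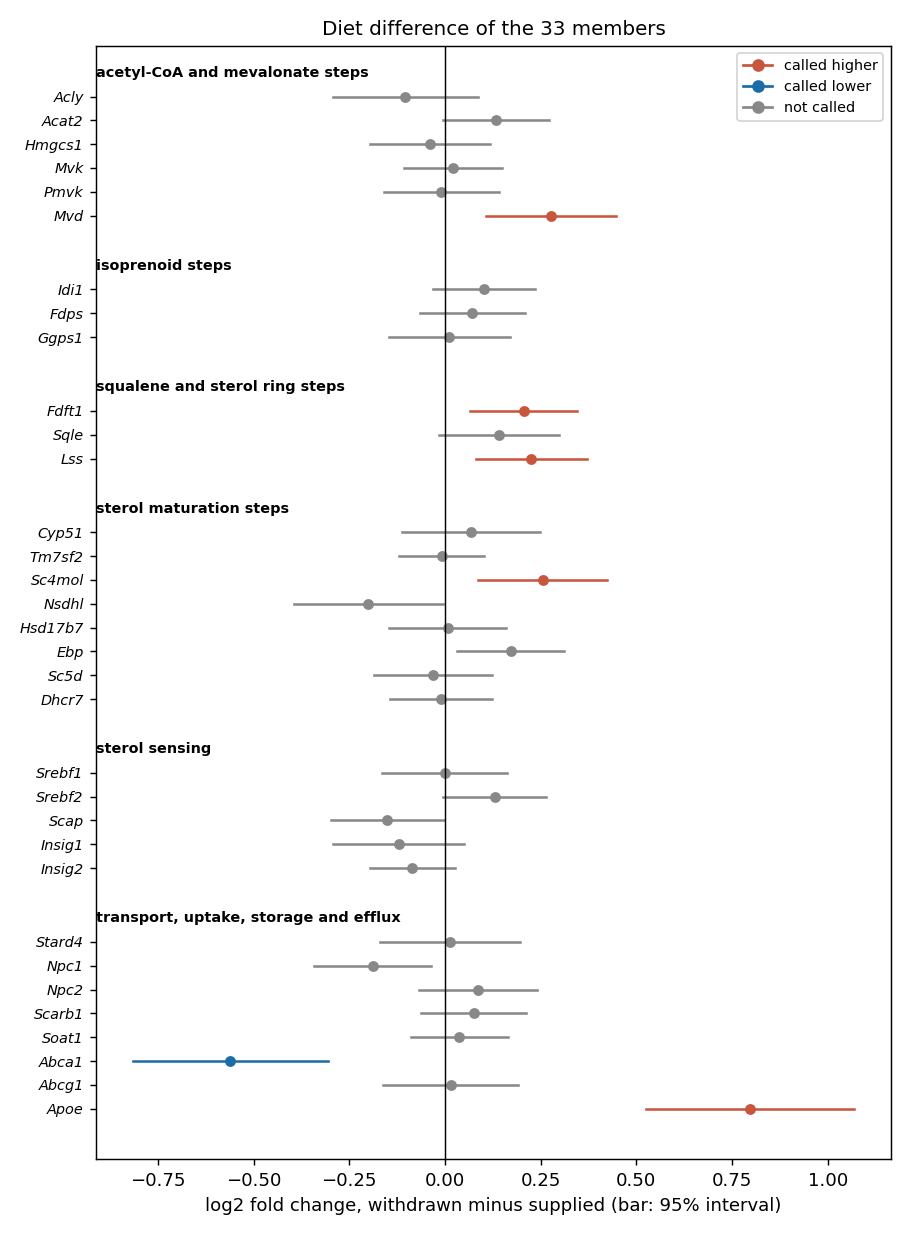
Log2 fold change (withdrawn minus supplied, points) with 95% intervals (bars) for the 33 genes in pathway order. Apoe, Mvd, Sc4mol, Lss and Fdft1 were called higher and Abca1 lower, and the 27 other points are grey (not called).

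Of the acetyl-CoA and mevalonate steps, 1 of 6 genes was called (16.7%, against 14.0% of all tested genes). Mvd encodes mevalonate diphosphate decarboxylase, which makes the first isoprenoid unit. Its values had a lowest of 7.36, a median of 7.63 and a highest of 7.76 in supplied embryos and 7.59, 7.88 and 8.08 in withdrawn embryos. In withdrawn embryos, 5 values lay above every supplied one, and withdrawn replicate 3, at 7.59, lay within the supplied range. The log2 fold change was 0.28 (SE 0.08, adjusted p = 0.0278). Acly, which makes cytosolic acetyl-CoA from citrate, was at -0.10 and ranged from 10.37 to 11.12 among withdrawn embryos, against 10.71 to 10.91 among supplied ones. The thiolase Acat2 was at 0.13 (95% interval -0.01 to 0.27, adjusted p = 0.187). Its close paralog Acat3 was at 0.01, and how reads were assigned to these similar copies is uncertain. Hmgcs1, which condenses acetyl units to HMG-CoA, was at -0.04 (interval -0.20 to 0.12), with supplied values from 10.85 to 11.25 and withdrawn values from 10.76 to 11.15. The kinases Mvk and Pmvk, which phosphorylate mevalonate, were at 0.02 and -0.01.

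The 3 isoprenoid genes were all slightly positive and none was called. Idi1, the isomerase of the first isoprenoid units, was at 0.10. Fdps, the farnesyl diphosphate synthase, was at 0.07, and Ggps1, which makes the longer geranylgeranyl unit for protein prenylation, was at 0.01.

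At the entry into sterols, 2 of 3 genes were called higher, against 6.22% of all tested genes. Fdft1, squalene synthase, commits farnesyl units to sterols. It had a lowest of 10.21, a median of 10.40 and a highest of 10.48 in supplied and 10.41, 10.59 and 10.75 in withdrawn embryos. Of the withdrawn embryos, 5 were above all supplied ones, and withdrawn replicate 4 was within the supplied range. Its log2 fold change was 0.21 (SE 0.07, adjusted p = 0.0445). Fdft1 overlaps the cathepsin gene Ctsb in the reference annotation, and Ctsb was at 0.01. Lss, which closes squalene epoxide to the ring of lanosterol, had 8.30, 8.52 and 8.63 (lowest, median, highest) in supplied and 8.62, 8.70 and 8.81 in withdrawn embryos. Its groups overlapped only between supplied replicate 2 and withdrawn replicate 4, and the log2 fold change was 0.23 (SE 0.07, adjusted p = 0.0342). Sqle, the squalene epoxidase between them, was at 0.14 (interval -0.02 to 0.30, adjusted p = 0.219). Its 5 higher withdrawn embryos were at 10.05 to 10.22, and withdrawn replicate 5, at 9.74, was below every supplied embryo. Sqle was called without that embryo, at 0.21 (adjusted p = 0.0379), and with array weights, at 0.20 (adjusted p = 0.0304).

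Of the 8 genes that turn lanosterol into cholesterol, Sc4mol alone was called (12.5%, against 14.0% of all tested genes). It encodes the C4 methylsterol oxidase, and had 8.65, 8.78 and 8.97 in supplied and 8.75, 9.10 and 9.19 in withdrawn embryos (lowest, median, highest). Of the withdrawn embryos, 4 exceeded all supplied ones, whereas withdrawn replicates 4 and 5 lay within the supplied range. The log2 fold change was 0.26 (SE 0.08, adjusted p = 0.0394). Ebp, the sterol isomerase, was at 0.17 with 5 withdrawn embryos above every supplied one, and it was not called (adjusted p = 0.0883). With array weights Ebp was called, at 0.18 (adjusted p = 0.0483). Nsdhl, whose product works with that of Sc4mol in removing the C4 methyl groups, was at -0.20 (interval -0.39 to -0.0053, adjusted p = 0.155), in the opposite direction. Without supplied replicate 4 it was called, at -0.26 (adjusted p = 0.0472). Hsd17b7, the ketosteroid reductase of the same step, was at 0.01. The demethylase Cyp51 was at 0.07, and its withdrawn values fell apart: replicates 1 to 3 lay between 9.03 and 9.07 and replicates 4 to 6 between 8.61 and 8.69, while supplied embryos ranged from 8.66 to 8.90. The reductase Tm7sf2, the desaturase Sc5d and the last reductase Dhcr7 were at -0.01, -0.03 and -0.01.

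**Figure D2:**
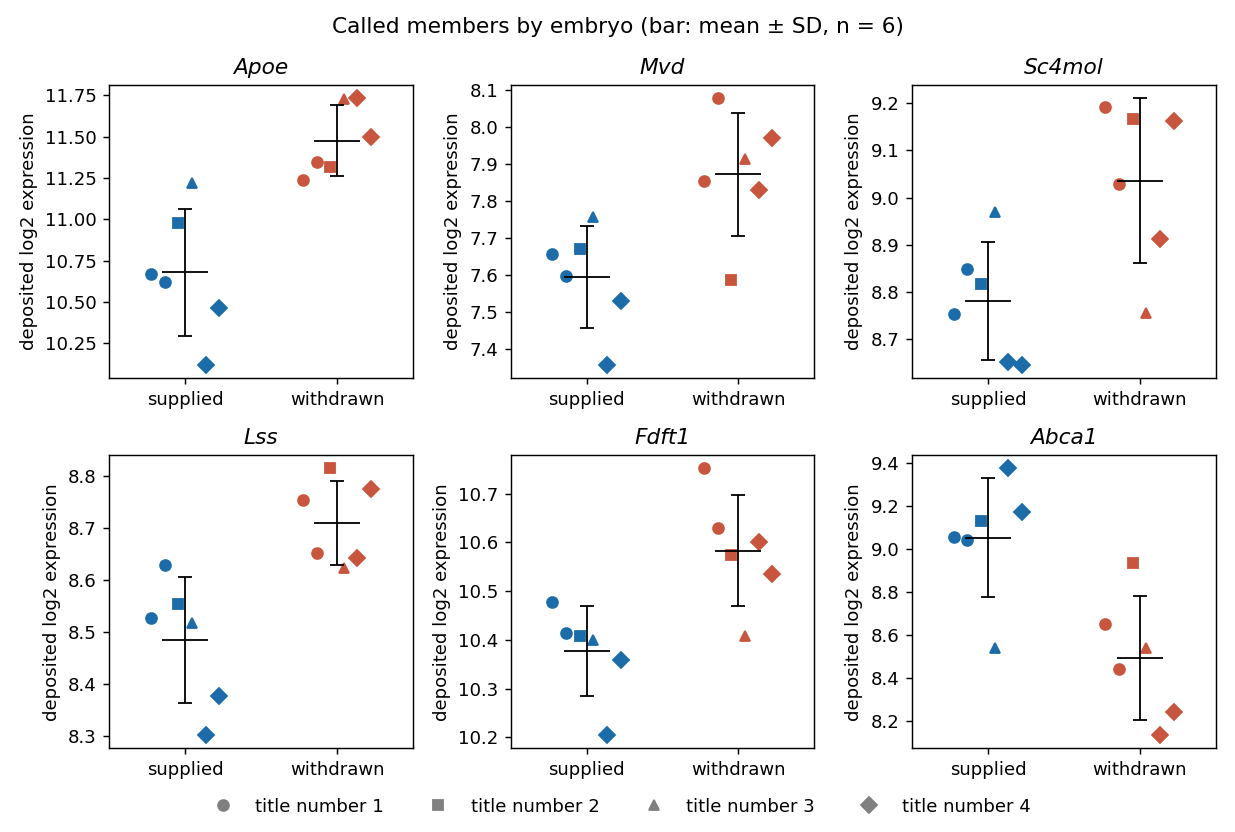
Deposited log2 expression of the 6 called genes in each of 12 embryos (points; symbol shapes give the title number), with the mean and SD of each diet (n = 6). Each vertical axis has its own range. The groups of Apoe do not overlap, and those of the other 5 do.

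None of the 5 sensing genes was called, and 1 had an unadjusted p below 0.05. Srebf2, the SREBP gene chiefly tied to cholesterol synthesis, was listed at 11.21 to 11.47 in supplied and 11.30 to 11.56 in withdrawn embryos, and its log2 fold change was 0.13 (interval -0.01 to 0.26, adjusted p = 0.185). Srebf1, tied more to fatty acid synthesis, ranged from 9.31 to 9.69 in supplied and 9.25 to 9.64 in withdrawn embryos. Its means were both 9.46 (interval of the difference -0.16 to 0.16, adjusted p = 0.998). Scap was at -0.15 (interval -0.30 to -0.0033, adjusted p = 0.157). Its withdrawn embryos lay at 9.44 to 9.59 and its supplied embryos at 9.49 to 9.94, with supplied replicate 5 the highest. Insig1, itself a sensitive SREBP target, was at -0.12 (adjusted p = 0.343). Withdrawn replicates 4 to 6 were at 9.46 to 9.64, below every supplied embryo, and withdrawn replicates 1 to 3 were at 9.77 to 9.98, within or just above the supplied range of 9.66 to 9.96. Insig2 was at -0.08 (adjusted p = 0.299). The bound farthest from 0 among these 5 intervals was that of Scap, at -0.30.

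Across embryos the 20 synthesis genes did not all move the same way. The median over the 20 synthesis genes of each value minus the supplied mean lay between -0.06 and 0.04 in the 6 supplied embryos. In withdrawn replicates 1 to 6 it was 0.15, 0.11, 0.06, 0.02, -0.01 and 0.11. Withdrawn replicate 1 had 17 of the 20 genes above the supplied mean and withdrawn replicate 5 had 9. The withdrawn SD was the larger one for 16 of these 20 genes (80%), against 54% of all tested genes. In all, 4 of 20 synthesis genes were called, all 4 higher. Of all tested genes, 14.0% were called in either direction and 6.22% were called higher. The median log2 fold change over all 20 synthesis genes, called or not, was 0.05.

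**Figure D3:**
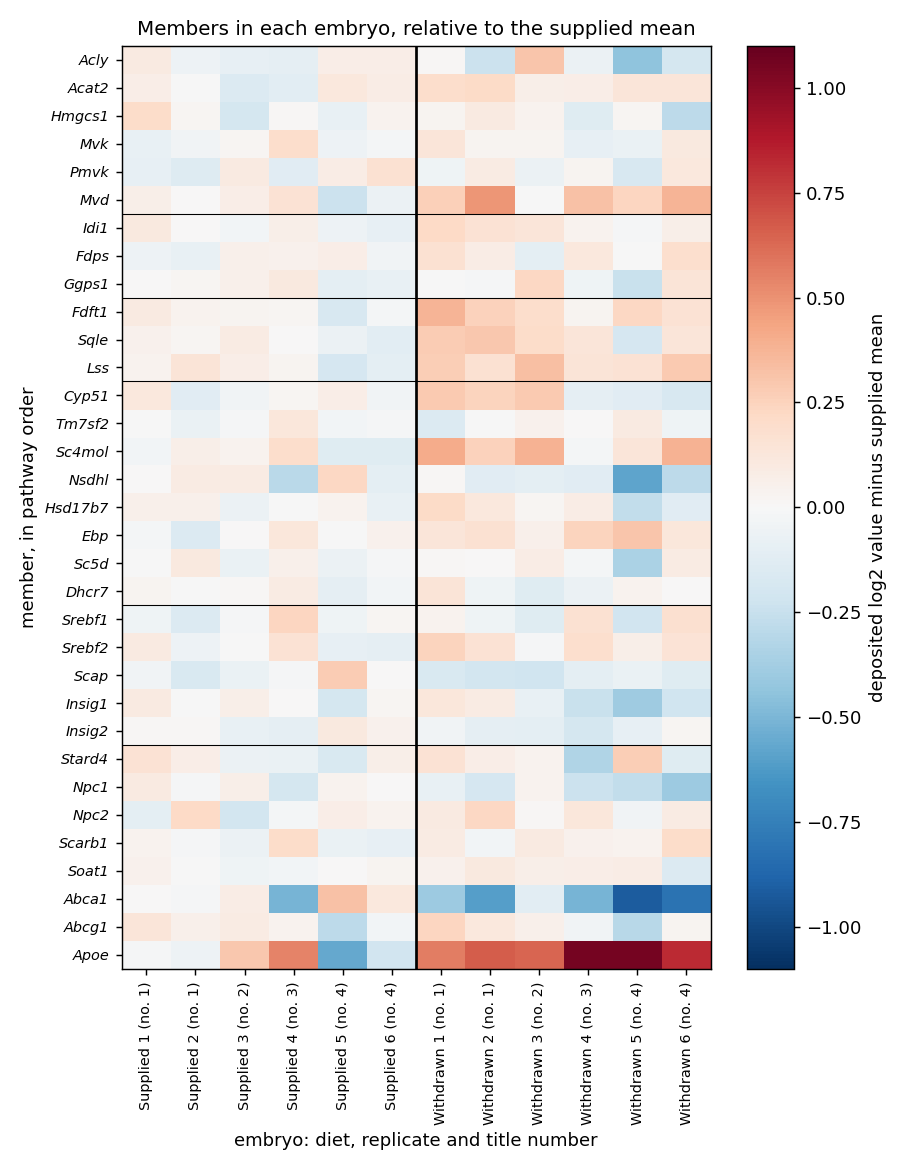
Each of the 33 genes (rows, pathway order) in each embryo (columns, diet, replicate and title number), as the deposited log2 value minus the supplied mean of that gene. The row of Apoe is high and that of Abca1 low in withdrawn embryos, and the 20 synthesis rows (Acly to Dhcr7) hold 17 values above the supplied mean in withdrawn replicate 1 and 9 in withdrawn replicate 5.

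Apoe showed the largest difference of the set. It encodes apolipoprotein E, the secreted protein that carries cholesterol and phospholipid between cells and binds lipoprotein receptors. The lowest, median and highest values were 10.12, 10.64 and 11.22 in supplied and 11.24, 11.42 and 11.73 in withdrawn embryos. The groups did not overlap, as was so for 2.15% of tested genes in the upward direction, but the gap was narrow, since supplied replicate 4 at 11.22 came close to withdrawn replicate 1 at 11.24. The means were 10.68 ± 0.39 and 11.48 ± 0.21 (SD, n = 6 each). The log2 fold change was 0.80 (SE 0.13, 95% interval 0.52 to 1.07, adjusted p = 0.00183), which ranked 2 by size among the 773 genes called higher. An exact two-sided permutation test of this gene gave p = 0.00216, the smallest that 6 against 6 allows, and 0.0482 after adjustment over all genes. After adjustment that test called only genes whose groups do not overlap, so for Apoe it restates the lack of overlap.

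Genes beside Apoe on chromosome 7 were then examined, a choice made after values had been seen. Of the 3 nearest listed genes on each side, the immediate neighbour Apoc1, another apolipoprotein gene, rose by 0.28 (SE 0.07, adjusted p = 0.0122), with 7.04 to 7.21 in supplied and 7.22 to 7.59 in withdrawn embryos and no overlap. On the other side Tomm40, a mitochondrial import channel gene, rose by 0.41 (SE 0.12, adjusted p = 0.0241) and Pvrl2, a cell adhesion gene, by 0.48 (SE 0.13, adjusted p = 0.0172). Both overlapped between the diets, and withdrawn replicate 5 was the highest embryo for each, at 9.81 and 10.09. Farther out, Clptm1 was at -0.10, Relb at 0.07 and Bcam at -0.02, and none of the 3 was called. Over all tested genes, 6.22% were called higher. Tomm40 was at 0.17 (adjusted p = 0.441) and Pvrl2 at 0.26 (adjusted p = 0.261) without the embryos of title number 4.

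Abca1 moved the other way. Its product passes cellular cholesterol to lipid-poor apolipoproteins. The lowest, median and highest values were 8.54, 9.10 and 9.38 in supplied and 8.14, 8.49 and 8.94 in withdrawn embryos. All 6 withdrawn embryos were below the supplied mean and 4 were below every supplied embryo, whereas supplied replicate 4, at 8.54, lay within the withdrawn range. The log2 fold change was -0.56 (SE 0.12, 95% interval -0.82 to -0.31, adjusted p = 0.00657), rank 46 by size among the 964 genes called lower. The exact two-sided permutation test gave p = 0.00866 for Abca1 and 0.0754 after adjustment, so it was not called by that test. Its call was also lost with embryos of a title number and diet averaged (-0.45, adjusted p = 0.0872), and held with the random effect for such embryos (-0.52, adjusted p = 0.0205). Abcg1, which exports cholesterol to mature lipoprotein particles, was at 0.02 (interval -0.16 to 0.19). Supplied replicate 4 was thus the supplied embryo nearest to the withdrawn group for both Apoe and Abca1.

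The remaining genes of uptake, storage and transport were not called. Scarb1, the receptor for high density lipoprotein, was at 9.91 to 10.20 in supplied and 9.97 to 10.20 in withdrawn embryos (log2 fold change 0.08, interval -0.06 to 0.21). Npc1, the lysosomal membrane protein that releases cholesterol from lysosomes, ranged from 10.57 to 10.86 and from 10.36 to 10.80. Its 3 lowest withdrawn embryos were below every supplied one, and the log2 fold change was -0.19 (interval -0.34 to -0.04, adjusted p = 0.0868). Npc1 was called at -0.23 without supplied replicate 4 (adjusted p = 0.0326) or without withdrawn replicate 3 (adjusted p = 0.0332). Its soluble partner Npc2 was at 0.09. Soat1, which esterifies cholesterol for storage, was at 0.04 and the sterol carrier Stard4 at 0.01.

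The titles of the samples carry a number from 1 to 4 that is found with both diets, and the labels do not say what it marks. Numbers 1 and 4 have 2 embryos per diet, and numbers 2 and 3 have 1. Within the numbers, the withdrawn minus supplied difference of Apoe was 0.65, 0.34, 0.51 and 1.32 for numbers 1 to 4. All 4 had to be positive, because the groups of Apoe do not overlap. The difference of Abca1 was -0.50, -0.20, -0.0032 and -1.08. Both genes thus had their widest difference in number 4, whose supplied embryos had the lowest Apoe and the highest Abca1 values of all. Lss (0.13, 0.26, 0.11 and 0.37) and Fdft1 (0.24, 0.17, 0.01 and 0.29) were positive in all 4 numbers, Mvd was negative in number 2 (-0.08) and Sc4mol in number 3 (-0.21). No test of a difference between numbers was run. Without the 4 embryos of number 4, none of the 33 genes was called by limma: Apoe was at 0.53 (adjusted p = 0.0530) and Abca1 at -0.30 (adjusted p = 0.228). Only 49 genes of the whole table were called in that fit, which has 4 embryos per diet.

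**Figure D4:**
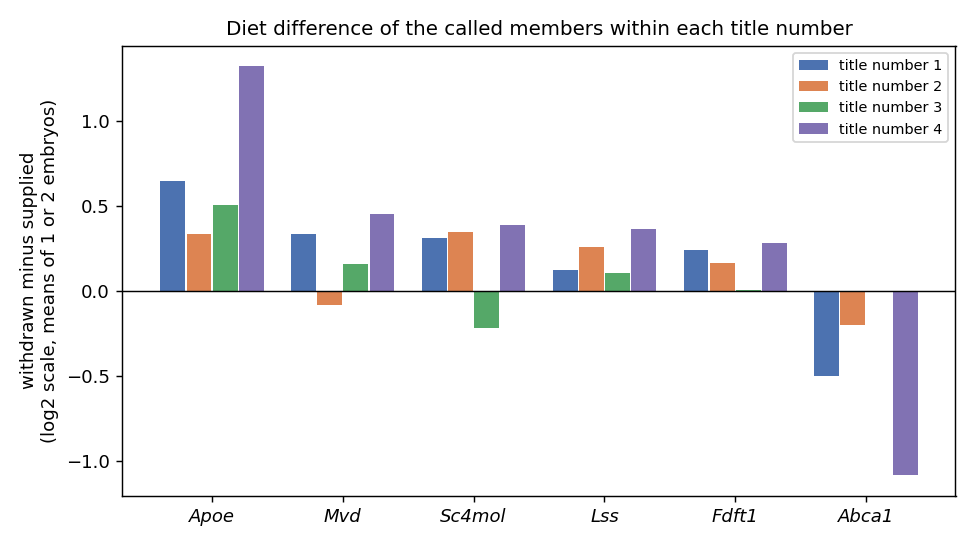
Withdrawn minus supplied difference of the 6 called genes within each title number (bars; log2 scale; means of 2 embryos per diet for numbers 1 and 4, single embryos for numbers 2 and 3). Title number 4 has the widest bars for Apoe (1.32) and Abca1 (-1.08).

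The 4 enzyme calls were often lost in alternative fits, while the differences kept their sign. Their log2 fold changes over 28 alternatives ranged from 0.19 to 0.35 for Mvd, 0.15 to 0.28 for Lss, 0.19 to 0.35 for Sc4mol and 0.15 to 0.25 for Fdft1. With a random effect for embryos that share a title number and diet, none of the 4 was called (adjusted p = 0.0776 for Mvd, 0.0737 for Lss, 0.0977 for Sc4mol and 0.0984 for Fdft1). The exact permutation test per gene called none of them either (adjusted p = 0.0906, 0.0598, 0.115 and 0.0754 in the same order). After adjustment that test could call only genes without overlap between the diets, and all 4 overlapped. Of the 5 genes called higher, Apoe alone was called when any one of supplied replicates 5 and 6 and withdrawn replicate 6 was left out. The count was 2 without withdrawn replicate 1, 2 or 3 and 3 without supplied replicate 2 or 3. The calls of Mvd, Lss, Sc4mol and Fdft1 were lost in 11, 12, 16 and 17 of 28 alternative fits, and their adjusted p values ranged from 0.00625 to 0.326 over these genes and fits. Abca1 was called in 24 and Apoe in 27 of the 28, and no sign changed for any of the 6 genes.

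Of 58 further sterol and lipid genes, 45 were in the table and passed the filter. The fit called 4 higher and 3 lower, 15.6% against the background of 14.0%, with a median of 0.01. Elovl6, which lengthens palmitate, rose by 0.51 (SE 0.10, adjusted p = 0.00304), with 10.37 to 11.10 in supplied and 11.11 to 11.39 in withdrawn embryos. Aacs, which makes cytosolic acetoacetyl-CoA for lipid synthesis, rose by 0.30 (SE 0.07, adjusted p = 0.00799). Neither gene overlapped between the diets, nor did Apoc1, given above, against 4.49% of tested genes without overlap. Mbtps1, the site-1 protease that makes the first cut in SREBP, rose by 0.22 (SE 0.07, adjusted p = 0.0312), a call lost in 16 of 28 alternatives. The lipoprotein receptor genes Lrp1, whose ligands include apolipoprotein E, and Lrp2 fell by 0.60 (SE 0.13, adjusted p = 0.00525) and by 0.38 (SE 0.09, adjusted p = 0.0111). Each had 5 withdrawn embryos below every supplied one. Osbp, which exchanges sterol between the endoplasmic reticulum and the Golgi, fell by 0.29 (SE 0.07, adjusted p = 0.0146). None of these 7 was called without title number 4.

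The fatty acid synthase Fasn, an SREBP target outside the 33, was at 0.19 and was not called (adjusted p = 0.0509). Fasn was called in 9 of 28 alternatives. The liver X receptor gene Nr1h2 was at 0.23 and was not called (adjusted p = 0.120). Nr1h2 was called in 2 of 28 alternatives, with array weights and without supplied replicate 4. Of the 11 genes that use isoprenoids, for ubiquinone, dolichol or protein prenylation, 0 were called by limma, against 14.0% of all tested genes. Pdss1 alone had an unadjusted p below 0.05, and it was at 0.18 (adjusted p = 0.0748). With quantile normalization Pdss1 was called. The exact test per gene also called 0.

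**Figure D5:**
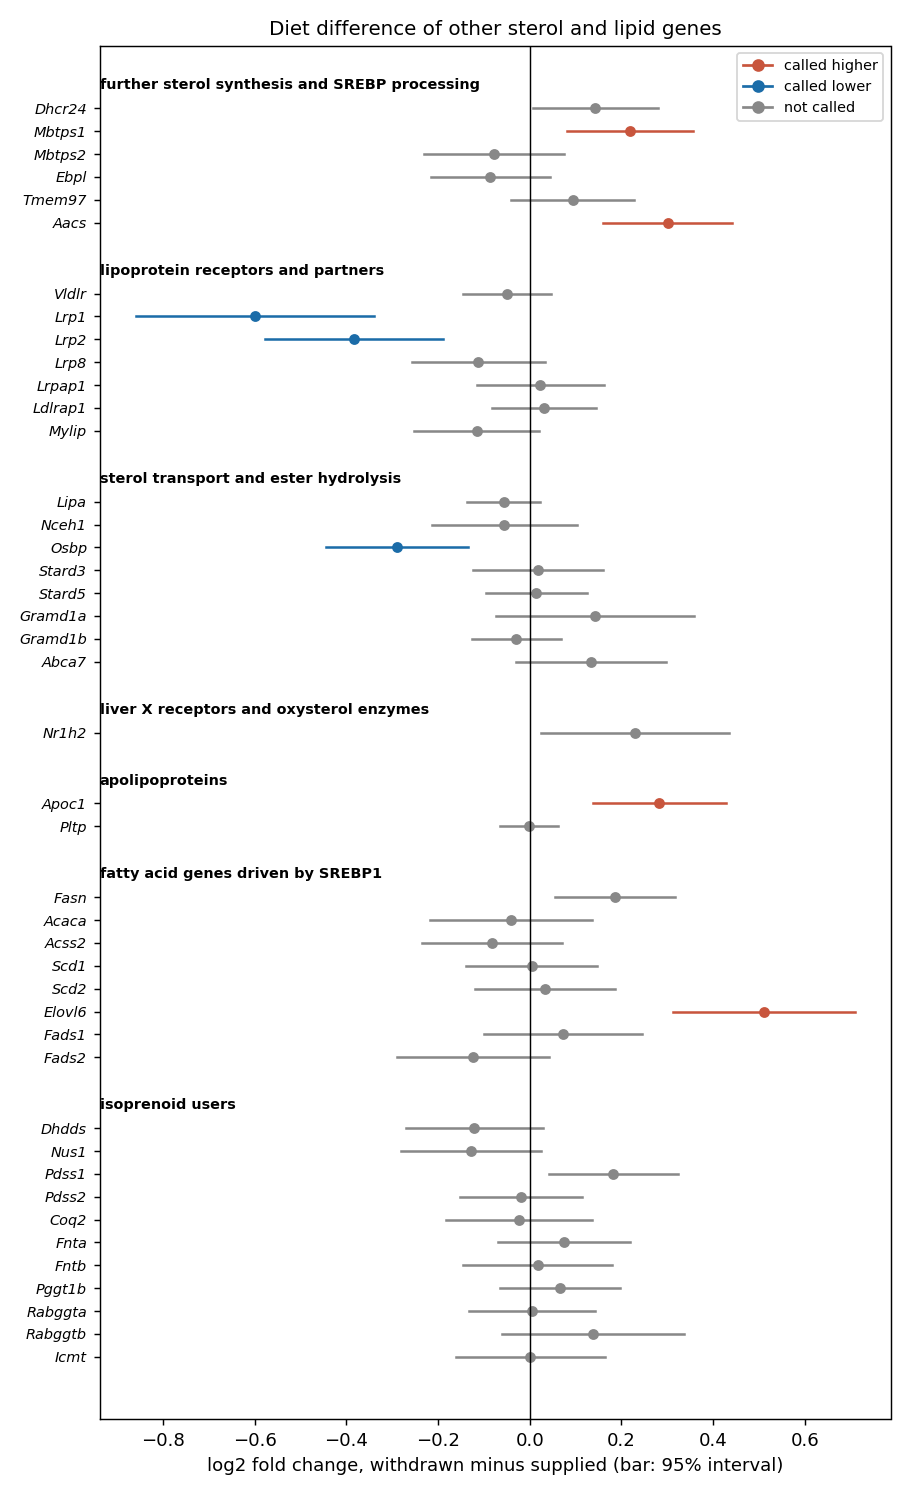
Log2 fold change (withdrawn minus supplied, points) with 95% intervals (bars) for other sterol and lipid genes by role. Elovl6, Aacs, Apoc1 and Mbtps1 were called higher and Lrp1, Lrp2 and Osbp lower.

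Cell types that make Apoe or steroids were checked by their markers. Of 9 macrophage markers 7 were listed, all below the median gene. The mean of the listed ones ranged from 4.44 to 4.64 in supplied and from 4.37 to 4.54 in withdrawn embryos, 4 of 6 tested were negative and none was called. Of 10 markers of steroid-making cells, 2 were listed (Star and Nr5a1), at 4.36 to 4.53 and 4.32 to 4.42, and Cyp11a1 and Hsd3b1 were not among the listed symbols. Both lists lie low on the deposited scale, whose derivation is unknown, and differences of low genes may be understated. A lack of calls there cannot show whether these cells differed in number. Of 12 supporting cell markers tested, 11 were negative and 2, Kitl and Emx2, were called lower, against 7.75% of all tested genes. All 5 listed mesenchyme markers were negative and none was called, and their mean was 5.29 to 5.81 in supplied and 5.27 to 5.44 in withdrawn embryos. Of 5 listed mesonephric markers 3 were negative, and Gata3 was called lower (-0.19, adjusted p = 0.0490). Of 7 endothelial markers 5 were negative and none was called. Among these 7 only Pecam1 lay above the median gene, with a supplied mean of 11.18, and it was at 0.20 (adjusted p = 0.0789). Pecam1 is part of the somatic mean below, and which of the sorted cells its RNA came from was not tested. None of 9 red blood cell markers was among the listed symbols. The mean of all 37 somatic markers tested was 5.25 to 5.43 in supplied and 5.22 to 5.33 in withdrawn embryos. Germ cell markers also moved with the diet: Stra8, an early meiotic gene, was at -1.77 and Pou5f1 at 0.45, both called. In the list of 14 germ cell markers, 6 were called higher and 4 lower, against 6.22% and 7.75% of all tested genes. The 4 lower were Stra8, Ddx4 (-0.34), Dazl (-0.43) and Mael (-0.77). The 6 higher were Pou5f1, Dppa3, Dnd1, Tfap2c, Prdm1 and L1td1. With the mean of the somatic markers as a covariate, Apoe (0.87, adjusted p = 0.0328) was the only one of the 33 genes called, and 136 genes were called in all. The part of germ cell stage in these results was not tested.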

How the data were processed

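RNA of sorted germ cells from 12 embryos was measured by sequencing. The authors deposited normalized log2 expression, 1 column per embryo. The submitters' processing notes name build mm9 and the tools TopHat2 2.0.13, DESeq2 1.10.1, Trim Galore 0.4.0 and FastQC. How reads were counted, with which annotation and strand setting, and how the log2 values were derived is not given in the sources used here. The depth per embryo is unknown, so no count test or counting interval was possible.

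Genes with a mean value of at least log2 of 10 (3.32) were kept, 12432 of 12516. Withdrawn and supplied embryos were compared with limma 3.58.1 in R 4.3.3 (moderated variances with a trend, two-sided, Benjamini-Hochberg over all genes kept, called below an adjusted p of 0.05). Intervals are 95% intervals from that fit. Exact permutation tests used all 924 arrangements. Tested on simulated data for this comparison with 12432 genes, the fit found 100% of genes with a simulated difference of 1 (log2) and 97% at 0.5. Smaller differences, such as those of the 4 enzymes, were not simulated. The simulated noise was independent between embryos, so these rates do not cover embryos that share a title number or mother.

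Replicates are numbered in the order of the sample list. Nothing in the labels says whether embryos that share a title number and diet had the same mother. P-values treat the 12 embryos as independent and would be too small if mothers were shared. Fits with a random effect for such embryos (statmod 1.5.0) or with their average were therefore added. The members and lists were chosen with earlier results of these data known. Values in each group were to be given for every called member and a set of sensing, transport and SREBP target genes, and for called genes of the further list. The genes beside Apoe, Ctsb, Acat3, and uncalled genes of the further list were added after values had been seen. RefSeq promoters (GRCm38.p6) were matched by symbol. Their build differs from mm9, so no coordinate of the data was used with it. Single values of some genes of the further list are not reported here, and these genes are not drawn.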

Additional observations from a re-analysis of the deposited data

Results flagged for a closer look

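Among 102 groups of 6 embryos (1 gene in 1 diet each), 8 held 1 embryo whose gap to the nearest other exceeded the 95% critical share of the group's range in Dixon's test. Chance flags about 1 in 20 groups. Supplied replicate 4 was the highest supplied embryo for Mvk (6.66, next 6.49), Tm7sf2 (6.13, next 6.00) and Mbtps1 (11.83, next 11.62). Withdrawn replicate 5 was the lowest withdrawn embryo for Sqle (9.74, next 10.05) and Sc5d (7.32, next 7.65). Supplied replicate 5 was low for Insig1 (9.66, next 9.85), withdrawn replicate 6 was low for Soat1 (10.08, next 10.28) and withdrawn replicate 4 was high for Bcam (4.05, next 3.90).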

How the results depend on the processing

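The 6 calls kept their direction in all 28 alternatives. The 1737 genes called became 886 with a random effect for embryos sharing a title number and diet, 298 with such embryos averaged, 136 with the somatic covariate, 729 without title number 1, 49 without number 4, 558 by the exact test, 444 at an adjusted p below 0.01 and 2723 below 0.10. Leaving out 1 embryo gave 808 (supplied replicate 5) to 2315 (supplied replicate 4). The count of the 33 genes called higher, 5 as reported, was 1 with the random effect, averaging, the covariate, the exact test, the 0.01 threshold or title number 1 left out, 2 without number 2 and 0 without number 4. It was 7 with array weights (Sqle and Ebp added) and 6 at the 0.10 threshold (Ebp added). It was 1 to 5 with 1 embryo left out. The count called lower, 1 as reported, was 0 with averaging, the covariate, the exact test or number 4 left out, and 2 with quantile normalization or the 0.10 threshold. It was 1 to 3 with 1 embryo left out, and the 3 without supplied replicate 4 were Abca1, Npc1 and Nsdhl. The 7 further sterol and lipid genes called became 2 with averaging, 1 with the covariate, 3 without number 1, by the exact test or at 0.01, and 0 without number 4. They were 6 to 9 with 1 embryo left out. The median of the 33 genes, 0.02, was 0.0579 with array weights and 0.00955 to 0.0616 with 1 embryo left out.

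With the title number as a replicate block, 2062 genes were called and 2 of the 33 genes were lower, the added one being Npc1 (adjusted p = 0.0471). Same-numbered embryos of the 2 diets had deviations correlated at 0.31, -0.04, 0.21 and -0.22 for numbers 1 to 4, so the number was not taken to pair them. In that check number 1 alone matched its own number best. Genes called under neither setting changed sign 88 times over the alternatives. Depth is unknown, so counting error could not be separated from differences between embryos.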
